A study of Mus musculus with 12 samples.

Results

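SR proteins and heterogeneous nuclear ribonucleoproteins (hnRNPs) are the main families of RNA-binding proteins that decide which splice sites a cell uses, and their RNA was followed here in limb buds of mouse embryos with a conditional knockout of Mettl14. The set holds 31 of the 31723 genes in the authors' expression table, taken by name: 11 Srsf genes of the SR family and 20 Hnrnp genes, with 3 hyphenated names left out. All 31 passed the filter on low values (1 FPKM or more on average in the 6 inputs), as did 13575 genes in all. The choice used gene names and no measured value.

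Limb buds were collected at E12.5 of embryonic development from conditional knockouts with both Mettl14 alleles floxed (Mettl14 flox/flox, called cKO) and from controls with 1 floxed and 1 wild-type allele (Mettl14 wt/flox, called cHet). The cHet embryos are thus heterozygous for the floxed allele, and no embryo with 2 wild-type alleles was among the groups. The Cre driver, and so the cells in which the gene was deleted, is not stated in the labels. Each genotype had 3 biological replicates of input RNA and 3 of RNA immunoprecipitated with an antibody against N6-methyladenosine (m6A), giving 12 libraries in 4 groups; whether embryos were pooled within a replicate is not stated in the labels.

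SR proteins carry a domain rich in arginine and serine, bind mostly exonic sequences and generally favour inclusion of the exon, whereas many hnRNPs bind intronic or exonic silencers and oppose it. Both families regulate their own transcripts: several of their genes can splice in a conserved poison exon that carries a premature stop codon and sends the RNA to nonsense-mediated decay. Some members are tied to m6A directly. The nuclear m6A reader YTHDC1 recruits SRSF3 and antagonises SRSF10 in human cells, HNRNPC binds sites that a nearby m6A makes accessible, and HNRNPA2B1 has been described as binding m6A-marked RNA.

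A few short stretches at the starts of hnRNP transcripts are shown first, because each holds a sequence form in which the methyltransferase complex is known to write m6A and lies inside a peak span of both of the authors' deposited peak lists. The motif letters are in capitals, and the sequences are the transcribed strand from RefSeq, build GRCm38.p6.
Hnrnpa3: cggtcccatattGAACTcgagttggaagag
Hnrnpf: ccgtcgtggaaggaGGACTgcgcctcgtct
Hnrnph1: gtgtggacgccaGGACCaccgaagggacga

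They lie at chr2:75659271-75659300, chr6:117906802-117906831 and chr11:50378302-50378331, all on the plus strand. The 5 forms searched were GGACT or GGACA or GGACC, the form GAACT and the form AGACT, in the first 50 bases after the annotated start, and the search was set up after the members' start sequences had been seen. RefSeq gave 41 such windows for 29 of the 31 genes, and 9 windows of 7 genes lay within peak spans of both lists. On the transcribed strand a form was held by 7 of all 41 member windows (17.1%), 3 of them among those 9, and by 23.5% of all 32851 windows. On the other strand it was held by 11 of 41 member windows (26.8%) and 22.8% of all windows. The authors' deposited lists gave the Hnrnpa3 peak a log2 enrichment of 1.75 in cKO and 1.89 in cHet. The Hnrnpf peak in the 5′ UTR stood at 1.59 in the deposited cKO list and 1.69 in the deposited cHet list. The Hnrnph1 peak at the start codon stood at 2.04 in the deposited cKO list and 1.66 in the deposited cHet list. Peak spans include introns, so a match shows only that these letters are there and is no measured methylation site.

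Mettl14, the subunit of the m6A methyltransferase that holds its RNA substrate, was read first as a check of the labels. It had 2.67, 3.07 and 2.63 FPKM (fragments relative to transcript length and library size) in cKO inputs, against 5.08, 4.54 and 4.39 FPKM in cHet inputs. All 3 cKO libraries were below all 3 cHet libraries, and the log2 change was -0.58 ± 0.08 (SE; limma adjusted p = 0.00289). The labels do not say which exons were floxed, so reads from exons outside the deletion may count in these values.

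Few of the splicing factors were called in input RNA at the deposited scale. Of the 31 genes, 4 rose and 1 fell at a Benjamini-Hochberg adjusted p under 0.05 in limma, which is 16.1% called, whereas 36.2% of all tested genes were called (18.7% higher and 17.5% lower). The 4 that rose were all hnRNP genes, Hnrnpr, Hnrnpdl, Hnrnpa0 and Hnrnph3, and the 1 that fell was Srsf9. At an unadjusted limma p under 0.05, 5 of 20 hnRNP genes and 2 of 11 SR genes passed, against 47.3% of all tested genes. The median log2 change over the 31 genes was -0.05, against -0.0027 over all tested genes. Its sign depended on scaling: with columns brought to one common sum the members' median was 0.07 (all tested genes 0.12), with 6 members higher and 0 lower (19.4% called, against 38.7% of all tested genes) and 3869 genes higher and 1382 lower in all, and after quantile normalization it was 0.19, with 10 members higher and 0 lower. After quantile normalization 32.3% of members were called, against 34.6% of all tested genes, so the low share of called members was not kept there. Median ratio scaling gave 4 members higher and 0 lower (12.9% called, against 36.8%). A change smaller than 0.2 on the log2 scale was found in 25 of 31 genes (80.6%), against 48.1% of all tested genes, and the 95% interval lay within 0.5 on either side of 0 for 28 of 31 (90.3%), against 60.4%. In bulk tissue a change in RNA per cell and a change in the share of cells that carry the RNA cannot be told apart.

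**Figure D1:**
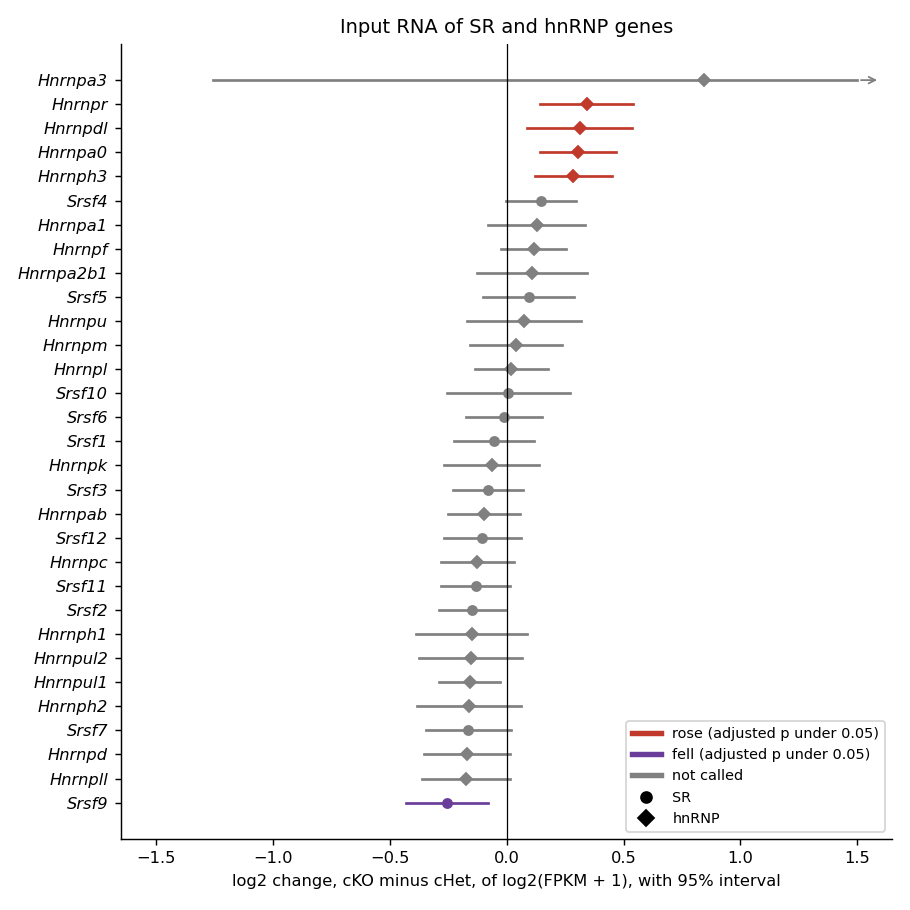
Log2 change in input RNA, cKO minus cHet, on the log2(FPKM + 1) scale (horizontal axis) for the 31 genes, with points for the limma estimate and lines for the 95% interval (n = 3 each). Most points lie within 0.2 of 0; the 4 coloured hnRNP genes rose by 0.29 to 0.34, Srsf9 fell by 0.26, and the interval of Hnrnpa3 runs past the right edge.

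Among the genes that rose, Hnrnpr (chr4:136310942-136359447), whose protein binds RNA in the nucleus and in axons, had 16.8, 18.1 and 19.6 FPKM in cKO, against 15.5, 13.8 and 13.1 FPKM in cHet. Its log2 change was 0.34 ± 0.08 (SE; limma adjusted p = 0.0202), and the groups did not overlap. Hnrnpdl (chr5:100033577-100039664), a relative of the mRNA-stability factor hnRNP D, had 87.6, 102 and 111 FPKM in cKO, against 82.6, 76.7 and 81.5 FPKM in cHet. Its lowest cKO library lay just above the highest cHet library, and the log2 change was 0.31 ± 0.09 (SE; limma adjusted p = 0.0399).

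Hnrnpa0 (chr13:58125879-58128556), an hnRNP A protein that binds AU-rich elements, had 108, 123 and 119 FPKM in cKO, against 91.5, 94.4 and 96.6 FPKM in cHet. No cKO library overlapped a cHet library, and the log2 change was 0.31 ± 0.07 (SE; limma adjusted p = 0.0143). Hnrnph3 (chr10:63014664-63024217), a member of the G-rich-sequence-binding hnRNP F/H group, had 39.2, 42.4 and 44.7 FPKM in cKO, against 36.3, 33.5 and 33.3 FPKM in cHet. These groups did not overlap either, and the log2 change was 0.29 ± 0.07 (SE; limma adjusted p = 0.0192).

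Srsf9 (chr5:115327177-115333080), a classical SR protein close to SRSF1, had 29.6, 32.0 and 27.1 FPKM in cKO, against 36.3, 36.1 and 33.9 FPKM in cHet. Every cKO library was below every cHet library, and it fell by 0.26 on the log2 scale (SE 0.07; limma adjusted p = 0.0350).
Each of these 5 calls was lost when certain single libraries were left out, while the size of the change stayed similar. None of the 4 rises remained called when cHet replicate 2, cKO replicate 2 or cKO replicate 3 was left out. Hnrnpdl was also not called without cHet replicate 1 or cHet replicate 3, and Srsf9 was not called without cHet replicate 1, cHet replicate 2, cKO replicate 1 or cKO replicate 3. In the 6 fits that each left out 1 library the log2 change ran from 0.27 to 0.36 for Hnrnpa0, from 0.24 to 0.33 for Hnrnph3, from 0.29 to 0.41 for Hnrnpr, from 0.24 to 0.41 for Hnrnpdl and from -0.31 to -0.20 for Srsf9.

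The most abundant SR transcripts were not called. Srsf2, an exonic-enhancer binder that also acts in transcription elongation, had 117, 126 and 126 FPKM in cKO, against 136, 135 and 138 FPKM in cHet. All cKO values were lower, yet the limma adjusted p was 0.0932 (log2 change -0.15 ± 0.06, SE). Srsf1, the best-studied SR protein, had 117, 122 and 129.7 FPKM in cKO, against 135, 129.8 and 119 FPKM in cHet, and the groups overlapped. Srsf7, which also takes part in mRNA export, had 106, 109.5 and 113 FPKM in cKO, against 133, 124 and 112 FPKM in cHet, and its highest cKO library passed the lowest cHet library. The limma adjusted p was 0.581 for Srsf1 and 0.136 for Srsf7.

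Both SR proteins tied to YTHDC1 stayed close to the control. Srsf3 had 79.2, 78.9 and 80.5 FPKM in cKO, against 89.1, 84.8 and 78.8 FPKM in cHet. Its cKO values sat in the lower part of the cHet range (log2 change -0.08, 95% interval -0.23 to 0.07). Srsf10 had 44.4, 47.9 and 48.5 FPKM in cKO, against 55.1, 44.9 and 41.0 FPKM in cHet, and the cHet libraries enclosed the whole cKO range (log2 change 0.01, 95% interval -0.26 to 0.27). Among the other SR genes, Srsf4 and Srsf5 had positive changes, and Srsf6, Srsf11 and Srsf12 had negative ones, none of them called. Srsf12 was the least abundant of all, at 3.76 ± 0.272 FPKM in cKO and 4.11 ± 0.179 FPKM in cHet (SD, n = 3 each).

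The 3 most abundant hnRNP transcripts were not called either. Hnrnpa1, the archetypal splicing silencer of the family, had 562, 584 and 577 FPKM in cKO, against 581, 513 and 487 FPKM in cHet. One cHet library lay among the cKO values (log2 change 0.13; limma adjusted p = 0.288). Hnrnpa2b1 had 242, 261 and 264 FPKM in cKO, against 270.1, 231 and 214 FPKM in cHet, so the cHet libraries spanned the cKO ones (log2 change 0.11, 95% interval -0.13 to 0.34). Hnrnpab, an A/B-type protein, had 197, 204 and 206 FPKM in cKO, against 225, 219 and 206 FPKM in cHet, and the groups overlapped at about 206. Hnrnpc, whose product packages nascent transcripts and binds uridine tracts, had 125, 121 and 126 FPKM in cKO, against 143, 137 and 127 FPKM in cHet. All 3 cKO values of Hnrnpc were lower, and the limma adjusted p was 0.175 (log2 change -0.13, 95% interval -0.28 to 0.03).

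**Figure D2:**
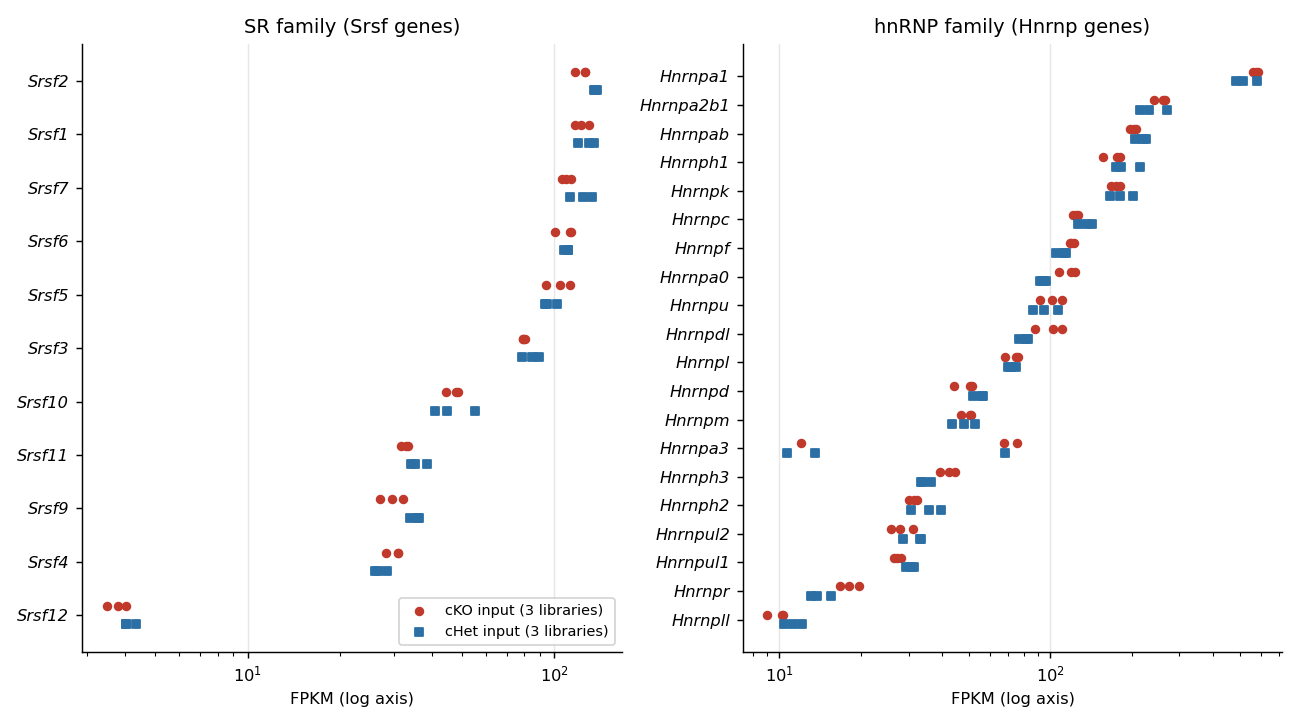
FPKM of each gene in the 6 input libraries on a log axis, SR genes on the left and hnRNP genes on the right, each ordered by mean level; red circles are cKO libraries and blue squares cHet libraries. Hnrnpa3 is the only gene with at least a 4-fold range within both genotypes.

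Hnrnpa3, an hnRNP A protein, stood apart in its spread rather than by genotype. It had 67.7, 12.1 and 75.3 FPKM in cKO, against 68.0, 13.6 and 10.7 FPKM in cHet. One cKO library was low and 1 cHet library was high, so the log2 change of 0.85 had a 95% interval of -1.26 to 2.95 (limma adjusted p = 0.481). It was the only one of the 31 genes with at least a 4-fold range within both genotypes, and 83 of the 13575 tested genes had such a range. How the FPKM program divided reads between this gene and near-identical copies was not tested, and the same holds for the other hnRNP A genes.

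Across the 31 genes, 5 were higher and 7 lower in all cKO libraries than in all cHet libraries, so the groups did not overlap for 12 of 31; over all tested genes 51.2% did not overlap. Summed over the family, SR transcripts came to 791 ± 35.0 FPKM in cKO and 828 ± 35.5 FPKM in cHet (SD, n = 3 each). As a percent of each column sum they were 0.306, 0.338 and 0.320 in cKO, against 0.320, 0.299 and 0.304 in cHet. The lower SR sum in cKO was thus not kept on that scale. The hnRNP transcripts summed to 2322 ± 92.8 FPKM in cKO and 2236 ± 190 FPKM in cHet (SD, n = 3 each). Without Hnrnpa3 they summed to 2270 ± 93.6 FPKM in cKO and 2205 ± 159 FPKM in cHet. As a percent of each column sum the hnRNP transcripts were 0.908, 0.976 and 0.945 in cKO, against 0.902, 0.795 and 0.792 in cHet. On that scale all cKO values were above all cHet values, the lowest cKO value only just, also without Hnrnpa3. The median of all tested genes was also higher in cKO on that scale, by 0.12 (log2). The libraries were not equal in these genes: cKO replicate 1 was the lowest cKO library for 27 of 31 genes (87.1%, against 5435 of the 13575 tested genes), and cHet replicate 1 was the highest cHet library for 25 of 31 (80.6%, against 41.1%). Without cKO replicate 1, 4 of the 31 genes were called higher and 0 lower (12.9% called, against 30.6% of all tested genes). Without cHet replicate 1, 3 were called higher and 0 lower (9.68% called, against 32.5%).

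The authors' table lists transcript types for each gene. A nonsense-mediated decay type was listed for 19 of the 31 genes (61.3%, against 20.9% of all tested genes), including all 8 classical SR genes (Srsf1 to Srsf7 and Srsf9). A retained-intron type was listed for 22 of 31 (71.0%, against 50.2%). The values are per gene, so the share of poison-exon transcripts was not measured.

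Other splicing genes were counted on lists drawn up with earlier results of these data known. Of 22 tested SR-related proteins and SR kinases, 6 rose and none fell (27.3% called, against 36.2% of all tested genes). At an unadjusted limma p under 0.05, 8 of the 22 passed (36.4%, against 47.3% of all tested genes). The median log2 change was 0.11. Srrm2, a scaffold of nuclear speckles where SR proteins gather, had 69.5 ± 1.58 FPKM in cKO and 43.4 ± 8.52 FPKM in cHet (SD, n = 3 each; limma adjusted p = 0.00781). Son, another speckle scaffold, had 56.4 ± 3.14 FPKM in cKO and 35.9 ± 3.96 FPKM in cHet (SD, n = 3 each; limma adjusted p = 0.00317). Of 43 other RNA-binding splicing regulators, 5 rose and 7 fell (27.9% called, against 36.2%), with a median log2 change of 0.01. Rbmx, which encodes hnRNP G but is not named Hnrnp, fell by 1.06 on the log2 scale: it had 25.8, 26.6 and 26.9 FPKM in cKO, against 59.3, 53.9 and 55.0 FPKM in cHet (limma adjusted p = 0.000484). Its libraries were tight and far apart, and read sharing with Rbmx copies was not tested. Raly, an hnRNP C relative, fell by 0.31, while Pspc1, a paraspeckle protein, and Cirbp, a cold-inducible RNA-binding protein, rose by 0.52 and 0.51 on the log2 scale.

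Of 42 spliceosome core genes 3 rose and 9 fell (28.6% called, against 36.2% of all tested genes), with a median log2 change of -0.07. Prpf19, the ubiquitin ligase of the spliceosome, fell by 0.43 and its partner Plrg1 fell by 0.40, whereas Prpf4, a U4/U6 protein, rose by 0.31 and Phf5a, an SF3b subunit, rose by 0.24 on the log2 scale. Of 15 genes of nonsense-mediated decay and the exon junction complex 3 rose and none fell (20% called, against 36.2%). At an unadjusted limma p under 0.05, 6 of the 15 passed, against 47.3% of all tested genes. The median log2 change was 0.17. Smg8, a regulator of the SMG1 kinase, had 17.1 ± 0.302 FPKM in cKO and 9.46 ± 0.598 FPKM in cHet (SD, n = 3 each). Smg1, the kinase that phosphorylates UPF1, had 6.22 ± 0.444 FPKM in cKO and 4.89 ± 0.527 FPKM in cHet (SD, n = 3 each). Of 5 m6A reader genes 3 rose (60% called, against 36.2%), with a median log2 change of 0.36 over the 5. Among the 3, Ythdf2, which speeds decay of m6A-marked RNA, rose by 1.05 and Ythdf1, linked to translation, by 0.76 on the log2 scale. Over the 5 lists together 20 of 127 tested genes rose and 16 fell, 28.3% called against 36.2% of all tested genes.

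**Figure D3:**
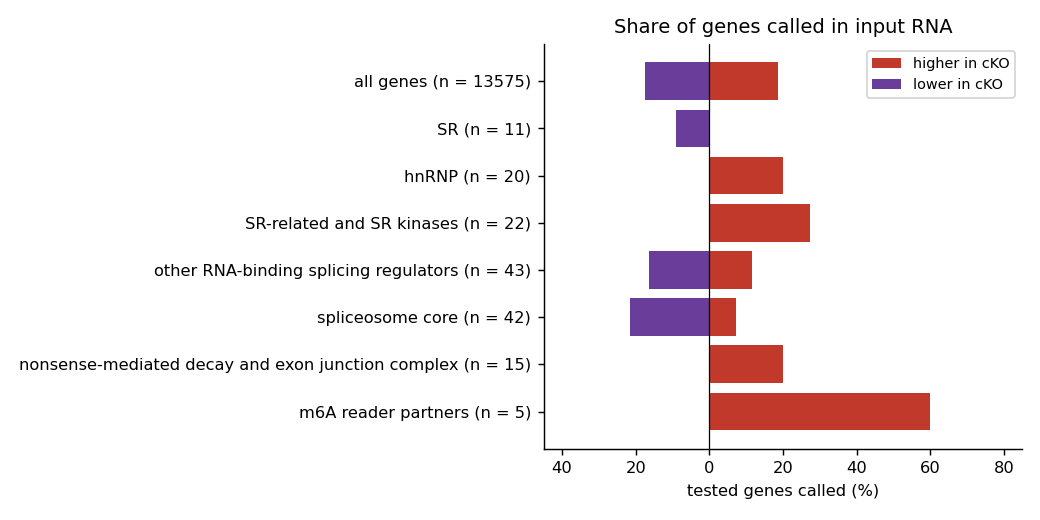
Share of tested genes called lower (purple, left of 0) and higher (red, right of 0) in cKO input, in percent, for all tested genes, both families and the 5 other lists, with the number tested after each name. The SR family has 9.09% lower and none higher, the hnRNP family 4 of 20 genes higher and none lower, and all genes 18.7% higher and 17.5% lower.

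Markers of several cell types differed in the same contrast; over 9 lists 10 of 53 tested markers rose and 14 fell, against 18.7% higher and 17.5% lower of all tested genes. Of 10 tested limb mesenchyme markers 7 rose, and the list summed to 550.2 to 653 FPKM in cKO and 412 to 424 FPKM in cHet. Of 6 chondrocyte markers 5 fell (98.7 to 112 FPKM in cKO and 165 to 178 FPKM in cHet, summed), and of 5 tested skeletal muscle markers 4 fell (204 to 330.1 FPKM in cKO and 349 to 379 FPKM in cHet). Of 7 epidermis markers 2 rose and 1 fell, of 6 proliferation markers 1 rose and 1 fell, of 5 endothelial markers 2 fell and of 4 Schwann cell and neural crest markers 1 fell. No marker was called among 6 erythroid genes (4971 to 10993 FPKM in cKO and 6066 to 8597 FPKM in cHet, summed) and 4 macrophage and leukocyte genes. No marker on the 9 lists was at 0 in all libraries. Their part in the changes of the splicing genes was not tested.

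The second readout was the authors' peaks of m6A enrichment, 1 list per genotype, so that no difference between the lists has a replicate or a test. In the authors' deposited lists the 31 genes carried 125 peaks in cKO, on 31 genes, and 98 peaks in cHet, on 30 genes. At least 1 peak was listed for 90.3% of all tested genes in cKO and for 89.1% in cHet. The deposited cKO list is the longer one for all tested genes too, with 38465 peaks in cKO and 33031 in cHet. In the deposited lists 15 of the 31 genes had more peaks in cKO (48.4%, against 37.8% of all tested genes), 4 had fewer (12.9%, against 15.1%) and 12 had as many (38.7%, against 47% of all tested genes). The authors' deposited lists gave Hnrnpr the most, 15 peaks in cKO and 11 in cHet. Next in the deposited cKO list was Hnrnpu, a scaffold of nuclear RNA, with 8 (4 in cHet). Next in the deposited cHet list was Srsf10 with 5 (6 in cKO). Srsf9 was the only one with peaks in 1 list: the deposited cKO list gave it 3 peaks, in the 5′ UTR, an exon and the 3′ UTR, at log2 enrichments of 1.50, 1.58 and 1.50, and the deposited cHet list gave it none.

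**Figure D4:**
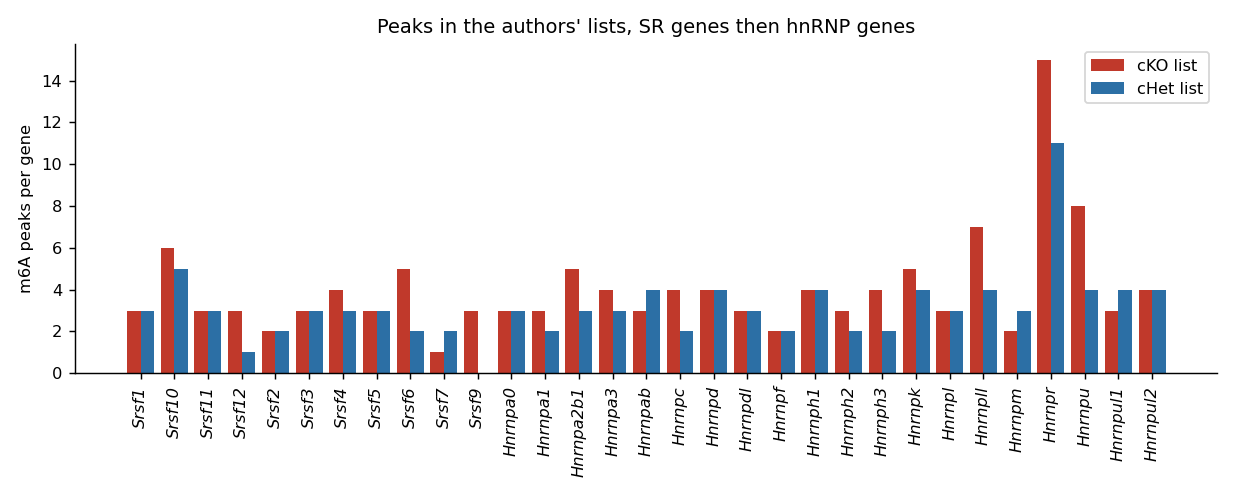
Number of m6A peaks per gene in the authors' deposited cKO list (red) and cHet list (blue), SR genes first and hnRNP genes after them. Srsf9 has 3 peaks in the cKO list and none in the cHet list, and Hnrnpr has the most in both, 15 and 11.

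Of the 125 cKO peaks in the authors' deposited list, 34 (27.2%) had no overlapping cHet peak, against 20.1% of the cKO peaks of all tested genes. Of the 98 cHet peaks in the deposited list, 6 had no overlapping cKO peak, against a background of 9.93%. With an overlap of at least 50% of each peak, 52 cKO peaks (41.6%, against 43.6% of all tested genes) and 25 cHet peaks (25.5%, against 34.3%) in the deposited lists had none, so the members' excess in cKO was not kept. The cKO peaks without a counterpart were at lower enrichment, with a median log2 enrichment of 1.07 in the authors' deposited list, against 1.68 for those with one. Over all tested genes these medians in the deposited cKO list were 1.12 and 1.68. Peaks of 3′ UTRs made up 45.6% of the members' cKO peaks and 39.8% of their cHet peaks in the deposited lists, and peaks at stop codons made up 13.6% in cKO and 17.3% in cHet. Over all tested genes the deposited lists had 38.9% in cKO and 38.3% in cHet for 3′ UTRs, and 15.5% in cKO and 19.6% in cHet for stop codons. Peaks that the authors' lists place on a nonsense-mediated decay transcript made up 14.4% in cKO and 10.2% in cHet, against 7.46% and 8.23% of the peaks of all tested genes; Srsf6 had 3 of them in cKO and 2 in cHet, and Srsf3 likewise had 3 in cKO and 2 in cHet.

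Where peaks of both of the authors' deposited lists overlapped by at least 1 base, most pairs of the splicing factors differed by less than 0.5 on the log2 scale. The 87 pairs of overlapping peaks had a median difference of 0.04 on the log2 scale, cKO minus cHet, against -0.11 over 27742 pairs of all tested genes in the deposited lists. A drop of at least 0.5 was seen in 10 of 87 pairs (11.5%), against 29.4% of all pairs, and a rise of at least 0.5 in 3 pairs (3.45%), against 5.55%. Of these 87 pairs, 71 shared at least 50% of each peak. Their median was also 0.04, against -0.08 over 21571 such pairs of all tested genes, with 6 drops of at least 0.5 (8.45%, against 27.3%). Pairs were not formed anew under the 50% rule, which 73 member peaks of each list met. The 3 rises among the 87 pairs were in Hnrnpk, Hnrnpr and Hnrnpul2. This count depends on a tie in Srsf4. An intronic cHet peak of 400 bases (1.05) lay wholly within a cKO peak of 11830 bases (1.37) and another of 800 bases (1.80). It was paired with the longer peak by list order, whereas pairing with the shorter peak would have given a further rise of at least 0.5. At stop codons, the usual place of m6A, the 17 pairs whose cHet peak has that annotation (the cKO peak in 14 of them) had a median difference of -0.02, against -0.64 over 6049 pairs of all tested genes in the deposited lists. Of the 17 pairs, 14 shared at least 50% of each peak and had a median of 0.0021, against -0.56 over all tested genes. The 17 were uneven: 6 dropped by at least 0.5 (35.3%, against 56.8% of the 6049 pairs), and the other 11 lay between -0.06 and 0.30. Peaks of those 11 differ widely in length. Those of Hnrnpd span 16633 bases in cKO and 16558 in cHet, those of Hnrnpr 10761 and 8040, and those of Hnrnph1 986 and 711. The lists give 1 enrichment per span, so the value of a long span need not be that of its stop codon. Of the 14 that shared at least 50% of each peak, 3 dropped by at least 0.5 (21.4%, against 53.4% for all tested genes).

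**Figure D5:**
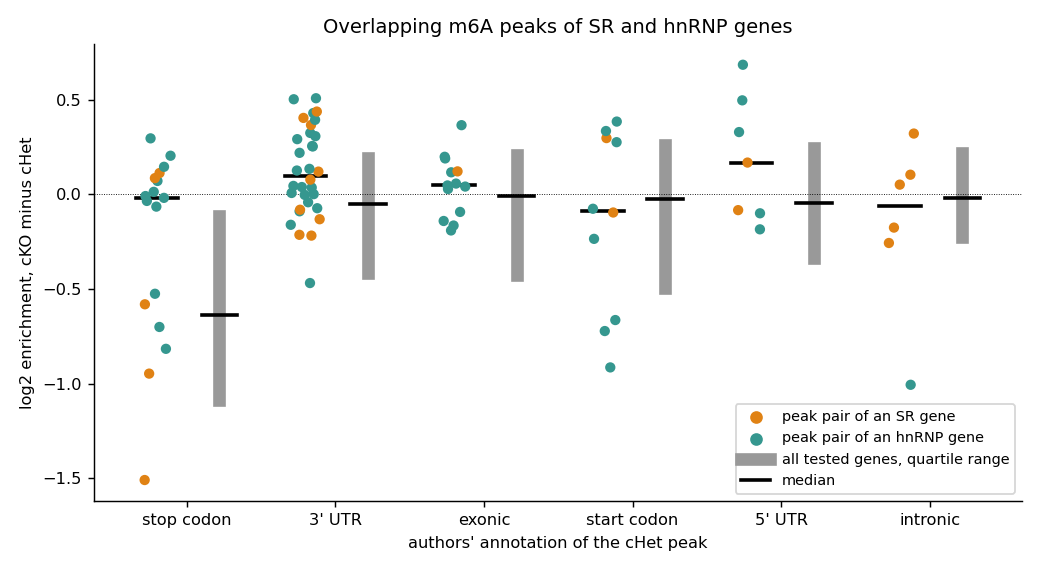
Difference in log2 enrichment, cKO minus cHet, of overlapping peaks in the authors' deposited lists (vertical axis) by the annotation of the cHet peak, with 1 point per peak pair of an SR gene (orange) or hnRNP gene (green), black lines at medians and grey bars for the quartile range of all tested genes. At stop codons the members' median is -0.02 and that of all tested genes -0.64, and the lowest point, at -1.51, is Srsf12.

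The largest drop was at the stop codon of Srsf12, where the authors' deposited lists gave 1.43 in cKO and 2.94 in cHet. The peaks differ in length, since the cKO span (chr4:33230993-33231417) holds 425 bases and the cHet span (chr4:33225805-33231642) 5838 bases. Next came an intronic peak of Hnrnpll, a regulator of exon skipping, at 1.67 in the deposited cKO list and 2.68 in the deposited cHet list. The stop codon of Srsf5, an SR gene induced by growth signals, stood at 1.80 in the deposited cKO list and 2.74 in the deposited cHet list. The 5 SR pairs whose cHet peak lies at a stop codon in the deposited lists split, with Srsf12, Srsf5 and Srsf4 lower by 0.58 or more and Srsf10 and Srsf11 higher by 0.09 and 0.11. The Srsf5 peaks span 1638 bases in cKO and 763 in cHet. Those of Srsf4 span 10358 bases in cKO, annotated to the 3′ UTR, and 3864 in cHet. The pairs of Srsf12, Srsf5 and Srsf4 did not share at least 50% of each peak, whereas those of Srsf10 and Srsf11 did.

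Among hnRNP genes, overlapping peaks of Hnrnpdl stood at 1.55 in the deposited cKO list, where the peak of 475 bases is annotated to the 5′ UTR, and at 2.46 in the deposited cHet list, where the peak of 693 bases is annotated to the start codon. Overlapping peaks of Hnrnpl, a binder of CA-rich sequence, stood at 1.97 in the deposited cKO list (exonic, 1274 bases) and at 2.79 in the deposited cHet list (stop codon, 2153 bases). The 4 genes whose RNA rose differed in their pairs. Their median difference, cKO minus cHet, was 0.28 for Hnrnpr, 0.18 for Hnrnph3, 0.04 for Hnrnpdl and -0.53 for Hnrnpa0. The stop codon peak of Hnrnpa0 stood at 2.64 in the deposited cKO list and 3.17 in the deposited cHet list. By contrast the 5′ UTR peak of Hnrnpk, a binder of C-rich sequence, stood at 2.45 in the deposited cKO list and 1.77 in the deposited cHet list. Stop codon peaks of the m6A-linked Hnrnpa2b1 stood at 2.81 in the deposited cKO list and 2.74 in the deposited cHet list, and those of Hnrnpc at 2.17 in cKO and 1.97 in cHet. The scaling of IP against input is not stated in the labels or file headers, so a difference between lists can hold a shift shared by all peaks.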

How the data were processed

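The authors deposited FPKM values per gene in the 6 input libraries and, per genotype, 1 list of m6A peaks with a log2 enrichment of IP over input, a raw and an adjusted p-value, per the file headers. Reads were handled with fastp and HISAT2 on mm10, per the submitters' processing notes. The FPKM program, its use of strand, the peak caller and how replicates entered the lists are not stated there, and read depth is unknown. FPKM columns summed to 237288 to 275299.

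Genes averaging 1 FPKM or more were fitted together in limma 3.58.1 (R 4.3.3) on log2(FPKM + 1), with a trend in the prior variance, as cKO minus cHet, and p-values were Benjamini-Hochberg adjusted over 13575 genes. Fold changes on this scale understate those of low genes. On simulated data for this comparison, with 200 of 13575 genes changed, 94% of changes of 1 and 47% of changes of 0.5 (log2) were called, with 2 false among 143 calls. Far more genes than 200 were called in the real data, and the simulated noise held no shift shared within a library. These rates therefore need not hold for the real data. Same-numbered replicates did not deviate together (correlations of -0.08, 0.04 and -0.20), so no block entered. Deposited peak starts count from 0, and 1 was added. Peaks overlapped if they shared at least 1 base, and pairs were each other's best overlap, a rule set after the lists had been seen. Equal overlaps were settled by list order. Tables were handled with pandas 2.3.3.

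Members and lists were chosen with earlier results of these data known. Values in every library are given for Mettl14, the m6A-linked members, called members, the 3 most abundant of each family and members with peaks in 1 list. Hnrnpa3 and Rbmx were given per-library values after these had been seen. From each other list, at most the 2 largest rises and 2 largest falls among called genes without overlap are named. Alternatives changed the pseudocount, filter, scaling, model, block or library.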

Additional observations from a re-analysis of the deposited data

How the results depend on the processing

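With 3 libraries per genotype, member calls lay close to the threshold and were lost without certain libraries. Leaving out 1 library at a time gave 0 to 4 members higher and 0 to 3 lower, 1515 to 2606 genes higher and 1243 to 2503 lower, 11 to 22 list genes higher and 6 to 18 lower, and member medians of -0.10 to -0.0040. With a replicate block 0 members were higher and 0 lower, 1564 genes were higher and 1325 lower, and 10 list genes were higher and 6 lower; same-numbered libraries did not pair. The cause of these and the following changes was not tested.

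Scaling columns to one common sum moved the median of all genes to 0.12 and gave 3869 genes higher and 1382 lower, 36 list genes higher and 5 lower, 6 members higher and 0 lower, and a member median of 0.074, still below that of all genes; its filter was kept on the deposited values after a first run had filtered the scaled ones. Quantile normalization gave 10 members higher and 0 lower, a member median of 0.19 with all genes at 0.0010, and 10 list genes lower; 32.3% of members and 34.6% of all genes were called there, and 61.3% and 67.6% with array weights. Array weights, whose fit stopped short of its tolerance, gave 8 members higher and 11 lower, 4578 genes higher and 4601 lower, and 41 list genes higher and 35 lower. With no filter 0 members were lower, as with median ratio scaling, and a filter at 5 FPKM left 1619 genes higher.

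The call was lost in 4 of 16 alternatives for Hnrnpa0, Hnrnph3 and Hnrnpr, in 7 for Hnrnpdl and in 9 for Srsf9, and none of these 5 changed sign. The log2 change of 12 other members, none called on the deposited values, changed sign in 26 cases, each case being 1 gene in 1 of the 16 alternatives. With columns at one common sum these were Hnrnpab 0.032, Hnrnpc 0.0026, Hnrnpk 0.065, Srsf1 0.074, Srsf3 0.047 and Srsf6 0.12. Under quantile normalization they were Hnrnpab 0.19, Hnrnpc 0.091, Hnrnph1 0.13, Hnrnpk 0.21, Srsf1 0.17, Srsf2 0.082, Srsf3 0.13, Srsf6 0.24 and Srsf7 0.073. Srsf6 stood at 0.034 with array weights and 0.0053 with median ratio scaling. Leaving out 1 library at a time gave -0.041 to 0.046 for Srsf6, -0.13 to 0.0084 for Hnrnpk, -0.0097 to 0.070 for Hnrnpl, -0.030 to 0.11 for Hnrnpm and -0.084 to 0.13 for Srsf10.

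The median enrichment of member peaks in the authors' deposited lists was 1.51 in cKO and 1.60 in cHet. With the strongest peak of each gene it was 2.17 in cKO and 2.38 in cHet, and over pairs 1.72 in cKO and 1.69 in cHet, so the order of the lists differed. Counts of members and of their peaks stayed within 1.5 times under the stricter peak thresholds. An overlap of 50%, added for these counts after the data had been seen, left 52 cKO and 25 cHet peaks of members without a counterpart, against 34 and 6 at 1 base, and gave stop codon pairs a median difference of 0.0021, against -0.019 at 1 base.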
